A study of Rattus norvegicus with 12 samples.

Results

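The genes described here build, link and remodel the extracellular matrix of the heart: collagens, laminins, nidogens, matricellular proteins and small proteoglycans, the elastic fibre, lysyl oxidases, matrix metalloproteinases and their inhibitors. They were chosen by name from a list of 42 genes in 5 groups, with earlier results of these data known. The expression table of 17602 genes held 39 of them, and Col1a2, Col6a3 and Hspg2 were not analysed here. Bulk RNA sequencing was made from the cardiac muscle of ZSF1 rats in 3 groups of 4 samples each: lean controls, untreated obese rats, and obese rats given 24 mM nicotinamide (NAM, a precursor of NAD) in their drinking water from week 8 to week 20 of life. ZSF1 is a hybrid rat strain whose obese animals serve as a model of heart failure with preserved ejection fraction. The labels call the obesity diet-induced, whereas obese ZSF1 rats are known for inherited defects of the leptin receptor. The labels give neither the age at sampling of the other 2 groups nor the sex of the rats. Nor do they state whether samples came from separate animals, so p-values measure the spread between these samples.

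Interstitial collagens I, III and V form the fibrils between cardiac muscle cells and are made mainly by fibroblasts. Basement membranes are thin sheets of collagen IV, laminin, nidogen and perlecan that surround each cardiomyocyte and each capillary. Elastic fibres consist of an elastin core on a fibrillin scaffold, lysyl oxidases cross-link collagen and elastin, and metalloproteinases cut matrix under the restraint of the TIMP proteins.

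Values are TPM, a length-corrected share of all transcripts, so levels of different genes can be compared within a sample. Because TPM are shares, they were read in 2 ways: as deposited, and rescaled so that the typical gene had the same level in every sample. Mitochondrially encoded genes took 66.2% to 70.4% of all TPM in the lean samples, 74.6% to 75.5% in the obese and 69.9% to 73.8% in the NAM-treated samples. As deposited, the median log2 change over the 10526 genes tested was -0.20 in obese against lean and 0.25 in NAM-treated against obese, and after rescaling these medians were 0.00 and -0.01. Between 14759 and 15120 genes were above 0 in each sample, and sequencing depth is unknown from TPM. Correlations between samples of 1 group (0.953 to 0.968) and of different groups (0.941 to 0.964) overlapped, and no samples were identical. Cardiomyocyte markers were as labelled, with Myh6, the alpha myosin heavy chain of heart muscle, at 791, 227 and 464 TPM on average in the lean, obese and NAM-treated groups.

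Few matrix genes were called. Of the 36 members that passed the filter of at least 1 TPM in at least 4 samples, limma on log2(TPM + 1) called 2 lower in obese than lean hearts as deposited (Col4a1 and Col4a2), beside 16.5% of all genes tested that were called lower and 0.352% called higher. At an unadjusted p under 0.05, 5 members were lower and 3 higher in that comparison, beside 32.5% and 1.32% of all genes. Rescaled, 17 were higher and 2 lower at that level, beside 8.14% and 8.54% of all genes. After rescaling it called 1 member higher in obese hearts (Bgn), beside 0.589% of all genes, and none lower, beside 0.751% (1.34% in all). In NAM-treated against obese hearts 3 members were called higher as deposited (Lama2, Lamb1 and Timp3), beside 28.8% of all genes, and none lower, beside 0.466%, with 5 higher and 1 lower at an unadjusted p under 0.05 (41.4% and 1.07% of all genes). After rescaling no member was called in this comparison (0.2% of all genes were called higher and 0.513% lower, 0.713% in all), although 17 had an unadjusted p under 0.05 on the lower side and none on the higher, beside 8.42% and 7.27% of all genes. In NAM-treated against lean hearts no member was called as deposited (0.865% of all genes higher, 0.969% lower), with 6 higher and 3 lower at an unadjusted p under 0.05, beside 10.6% and 6.39% of all genes. Rescaled, Col4a1 alone was called lower, beside 1.59% of all genes (0.77% higher, 2.36% in all), and 5 members were higher and 3 lower at an unadjusted p under 0.05, beside 7.42% and 9.41%. The threshold was an adjusted p of 0.05, with Benjamini-Hochberg adjustment over all 10526 genes, and obese against lean and NAM-treated against obese share the 4 obese samples. Fmod, Col18a1 and Emilin1 did not pass the filter and were not tested.

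The members stood differently against the typical gene in the 2 scalings. As deposited, their median log2 change was 0.03 in obese against lean, 0.05 in NAM-treated against obese and 0.01 in NAM-treated against lean, where the medians of all genes tested were -0.20, 0.25 and 0.05. The basement membrane group differed from the others and lay close to the typical gene. As deposited, 9 of its 10 tested genes were below 0 in obese against lean (median -0.23). All 10 were above 0 in NAM-treated against obese (median 0.19). Medians of the other groups were 0.05 to 0.12 and -0.11 to -0.02. Rescaled, 30 of the 36 tested members had a log2 change above 0 in obese against lean, with a median of 0.26. In NAM-treated against obese 32 of 36 were below 0 after rescaling, with a median of -0.25. Of the 10 basement membrane genes, 5 were above 0 in the first of these (median -0.01) and 8 below 0 in the second (median -0.06). Rescaled medians of the other groups were 0.27 to 0.36 and -0.37 to -0.33. In NAM-treated against lean the rescaled median was -0.04, with 16 of 36 above 0. Over all genes tested 50.7%, 48.5% and 50.4% were above 0 in these rescaled comparisons. The TPM of the 39 measured members summed to 583 to 616 in the lean samples, 513 to 644 in the obese and 575 to 651 in the NAM-treated samples. Rescaled, the sums were 554 to 589.7, 609 to 735 and 556 to 578, so that each obese sample was above all others. These medians, counts and sums are descriptions of the list.

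**Figure D1:**
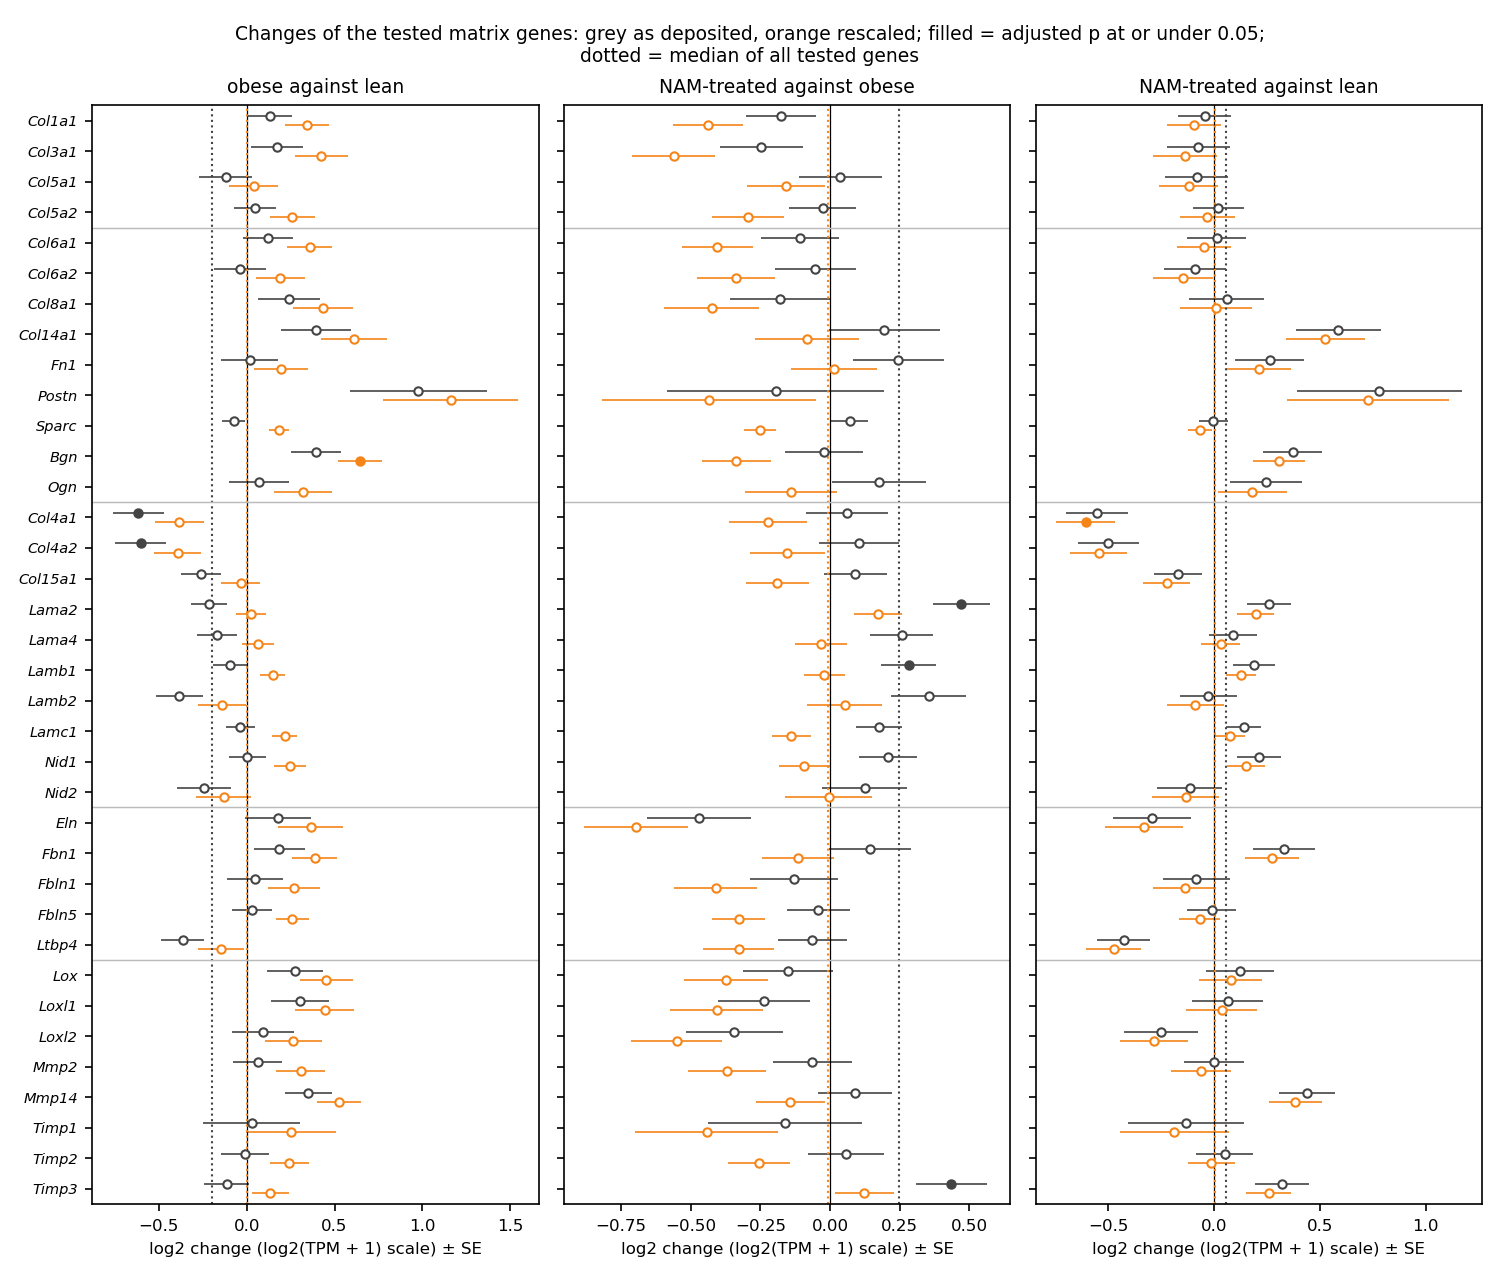
Log2 change of each tested member with its standard error (x axis: limma estimate on log2(TPM + 1); y axis: 36 members by group), in the 3 comparisons, as deposited and rescaled; filled points have an adjusted p at or under 0.05 and dotted lines mark the median of all genes tested. As deposited the members outside the basement membrane group lie around 0 while the median of all genes is -0.20 and 0.25 in the first 2 comparisons. Of the 10 basement membrane genes, 9 lie below 0 in the first and all 10 above 0 in the second. Rescaled, most members lie above 0 in obese against lean and below 0 in NAM-treated against obese, with 5 of the 10 basement membrane genes above 0 in the first.

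Col4a1 and Col4a2, which encode the alpha1 and alpha2 chains of the collagen IV network, were the members lowest in obese hearts relative to lean. The 2 genes lie head to head on rat chromosome 16, with 76 bases between their annotated starts in RefSeq's GRCr8 assembly (chr16:84885521-84885596, plus strand shown). Of 16624 minus-strand starts in that promoter table, 365 (2.2%) have a plus-strand start as near or nearer. The span is shown because both genes start from it. It has 78.9% GC and holds 1 match to GGGCGG, a motif bound by Sp1-type factors, in capitals on its other strand as CCGCCC. These 76 bases hold no match to the other motifs searched, and longer windows of both genes are counted with the other promoters below.
Col4a1-Col4a2 span: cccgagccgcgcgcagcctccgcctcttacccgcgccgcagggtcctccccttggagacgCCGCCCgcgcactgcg

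Col4a1 stood at 14.4, 9.98, 9.56 and 12.1 TPM in lean samples 1 to 4, at 8.30, 8.22, 6.77 and 5.34 TPM in the obese samples, and at 8.47, 7.33, 7.39 and 6.57 TPM in the NAM-treated samples. Every lean sample was above every obese and every NAM-treated sample, and the obese and NAM-treated samples overlapped. Its group means, in the same order, were 11.5 ± 2.20, 7.16 ± 1.40 and 7.44 ± 0.781 TPM (SD, n = 4 each). On the log2 scale Col4a1 fell by 0.62 in obese against lean as deposited (SE 0.15, limma adjusted p = 0.0144). Rescaled, the change was -0.38 ± 0.14 (SE) and missed the threshold (adjusted p = 0.190, 95% interval -0.69 to -0.08). Against lean, the NAM-treated hearts had a change of -0.55 as deposited (adjusted p = 0.0844) and -0.61 rescaled, where it passed limma's threshold (adjusted p = 0.0435). Between NAM-treated and obese hearts its log2 change was 0.06 as deposited and -0.22 rescaled, with adjusted p of 0.779 and 0.477.

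Col4a2 had the same order of groups. Its values were 7.67, 5.20, 5.07 and 6.80 TPM in the lean samples, 3.45, 4.95, 3.59 and 2.93 TPM in the obese and 3.96, 4.07, 4.42 and 3.66 TPM in the NAM-treated samples, and again no lean sample overlapped either other group. Its log2 change in obese against lean was -0.60 ± 0.14 (SE) as deposited (limma adjusted p = 0.0146) and -0.39 rescaled (adjusted p = 0.166). NAM-treated against lean gave -0.50 (adjusted p = 0.108) and, rescaled, -0.55 (adjusted p = 0.0578). Both calls in obese against lean held as deposited in all 12 fits that left out 1 sample, with an adjusted p of up to 0.0456 for Col4a1 and 0.0468 for Col4a2, in each case without lean sample 1. The rescaled call of Col4a1 in NAM-treated against lean was lost in 10 of the 12, with an adjusted p of up to 0.116 (without NAM-treated sample 3). When TPM were recomputed without the mitochondrially encoded genes, Col4a1 and Col4a2 had log2 changes of -0.37 and -0.40 in obese against lean, with adjusted p of 0.239 and 0.223.

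The ratio of the 2 chains, which no scaling can move, had close group means. Col4a1 per Col4a2 averaged 1.86 ± 0.0604 in the lean group, 1.94 ± 0.322 in obese and 1.85 ± 0.202 in NAM-treated hearts (SD, n = 4 each). The mean log2 ratio differed by 0.05 in obese against lean, -0.06 in NAM-treated against obese and -0.02 in NAM-treated against lean, with exact 2-sided permutation p of 0.8, 0.6 and 0.914. Together the 2 chains made up 18.5% ± 2.92 of the TPM of the 12 measured collagen chains in lean hearts, 11.7% ± 3.43 in obese and 13.0% ± 1.15 in NAM-treated hearts (SD, n = 4 each). The lowest lean sample (16.3%) was above the highest obese (16.0%) and NAM-treated (14.4%) samples.

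Collagen IV is made by several cell types, endothelial and mural cells among them. As deposited, limma called 1 of 9 tested endothelial and 1 of 5 tested mural markers lower in obese against lean, beside 16.5% of all genes, and 2 of 9 and 2 of 5 higher in NAM-treated against obese, beside 28.8%. Rescaled it called none, with 2 endothelial markers higher (8.14% of all genes) and 1 mural lower (8.54%) at an unadjusted p under 0.05 in the first comparison, and 2 endothelial lower (8.42%) and 1 mural higher (7.27%) in the second. The 9 measured endothelial markers summed to 104 to 112 TPM in lean, 90.3 to 105 in obese and 101 to 130 in NAM-treated samples, and the 8 mural markers to 174 to 180, 130.3 to 145 and 137 to 205 TPM. Cdh5, the VE-cadherin of endothelial junctions, had log2 changes of -0.40 in obese against lean and 0.44 in NAM-treated against obese as deposited (limma adjusted p = 0.0274 and 0.0125), and of -0.15 and 0.13 rescaled (adjusted p = 0.544 and 0.611). Col4a1 per Cdh5 averaged 0.536 in the lean group, 0.442 in obese and 0.334 in NAM-treated hearts. Its mean log2 ratio was lower by 0.66 in NAM-treated than lean hearts, with no overlap of the groups (exact permutation p = 0.0286, the smallest that 35 splits allow; 0.143 adjusted over 15 ratio tests). The differences in obese against lean (-0.27) and NAM-treated against obese (-0.39) had exact permutation p of 0.257 and 0.0571. Cdh5 was chosen after the data were seen. In bulk tissue, fewer cells of a type and less RNA per cell cannot be told apart, and the part of cell numbers in these levels was not tested.

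**Figure D2:**
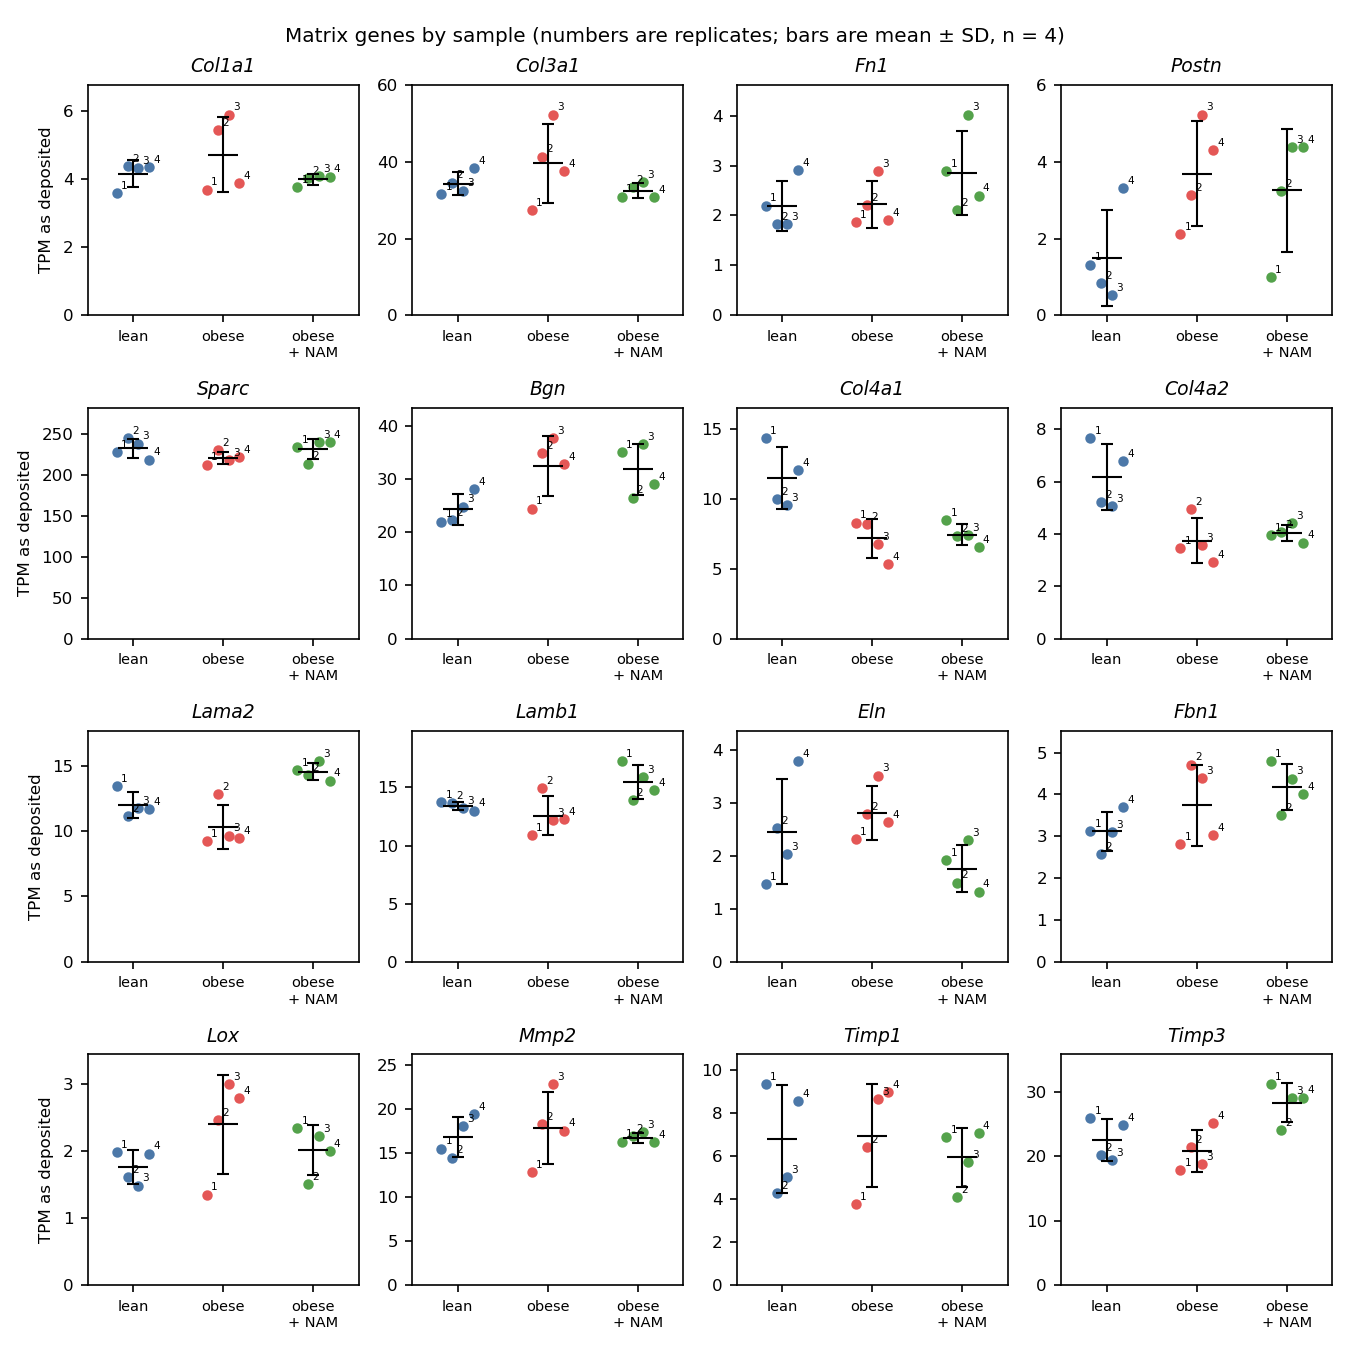
TPM as deposited of the 16 named members (y axis, from 0) in each of the 12 samples (points, 4 per group on the x axis), with the group mean ± SD as bars (n = 4 each). Col4a1 and Col4a2 are higher in all 4 lean samples than in any other, while Lama2 is higher in all 4 NAM-treated samples than in any other; after rescaling, Lama2 overlapped between NAM-treated and obese samples and both collagen IV genes between obese and lean.

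Among the laminins and nidogens, none was called in obese against lean, and 2 laminin chains were called higher in NAM-treated against obese hearts as deposited. Lama2, the alpha2 chain of the laminin that links heart and skeletal muscle cells to their basement membrane, was the member with the smallest adjusted p in NAM-treated against obese hearts. It stood at 13.5, 11.2, 11.8 and 11.7 TPM in the lean samples, 9.27, 12.8, 9.67 and 9.45 TPM in the obese and 14.7, 14.3, 15.4 and 13.9 TPM in the NAM-treated samples. All 4 NAM-treated samples were above all others, and obese sample 2 was within the lean range while the other obese samples were below it. Lama2 rose by 0.47 ± 0.10 (SE) on the log2 scale in NAM-treated against obese hearts as deposited (limma adjusted p = 0.00730) in all 12 fits with 1 sample left out (adjusted p up to 0.0236). Rescaled, the change was 0.17 (adjusted p = 0.361, 95% interval -0.02 to 0.36), and without the mitochondrially encoded genes it was 0.30 (adjusted p = 0.115). Against lean, NAM-treated hearts had a log2 change of 0.26 as deposited and 0.20 rescaled (adjusted p = 0.229 and 0.277), and without the mitochondrially encoded genes it passed the threshold (0.38, adjusted p = 0.0449). In obese against lean it was -0.21 and 0.02, and without obese sample 2 it was -0.31 as deposited and passed (limma adjusted p = 0.0267). Without obese sample 1 it was -0.17 as deposited and missed the threshold (adjusted p = 0.322).

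Lamb1, the laminin beta1 chain, stood at 13.8, 13.6, 13.3 and 13.0 TPM in the lean samples, 10.9, 14.9, 12.2 and 12.3 TPM in the obese and 17.3, 13.9, 15.9 and 14.7 TPM in the NAM-treated samples. Obese sample 2 overlapped the NAM-treated samples. The log2 change in NAM-treated against obese was 0.28 ± 0.10 (SE) as deposited and just passed limma's threshold (adjusted p = 0.0457), and was -0.02 rescaled (adjusted p = 0.925). The call was lost in 10 of 12 fits with 1 sample left out, with an adjusted p of up to 0.128 without NAM-treated sample 1.

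Of the other basement membrane genes none was called. Lamc1, the gamma1 chain shared by most laminins, was the most abundant of the group at 36.1 ± 1.56, 35.1 ± 2.11 and 39.9 ± 3.72 TPM in the lean, obese and NAM-treated groups (SD, n = 4 each). Lamb2, the beta2 chain, had log2 changes of -0.38 in obese against lean and 0.35 in NAM-treated against obese as deposited (limma adjusted p = 0.0664 and 0.0624), and of -0.14 and 0.05 rescaled. Without obese sample 1, limma called Lamb2 lower in obese against lean and higher in NAM-treated against obese as deposited. Lama4, a laminin alpha chain of blood vessel walls, averaged 9.18, 8.07 and 9.84 TPM. Nid1, which bridges laminin and collagen IV, averaged 12.6, 12.7 and 14.8 TPM, and its close relative Nid2 0.975, 0.670 and 0.819 TPM. Col15a1, a collagen of the outer side of the basement membrane, averaged 7.66, 6.25 and 6.72 TPM. Col18a1, the parent of endostatin, was below 1.1 TPM throughout and averaged 0.746, 0.770 and 0.605 TPM. Together the 11 measured basement membrane genes held 21.2% ± 1.01 of the members' summed TPM in the lean group, 18.6% ± 1.73 in obese and 20.9% ± 0.778 in NAM-treated hearts (SD, n = 4 each).

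The fibrillar collagens were not called in any comparison in either scaling, and the spread within the obese group was wide. Col1a1, the alpha1 chain of collagen I, stood at 3.58, 4.39, 4.32 and 4.34 TPM in the lean samples, 3.69, 5.42, 5.89 and 3.87 TPM in the obese and 3.75, 4.03, 4.09 and 4.07 TPM in the NAM-treated samples. As deposited the groups overlapped, with log2 changes of 0.13 in obese against lean (95% interval -0.14 to 0.41) and -0.18 in NAM-treated against obese (95% interval -0.45 to 0.10). Rescaled, the obese samples (4.38, 5.84, 6.73 and 4.42 TPM) lay above all lean (3.27, 4.26, 4.15 and 4.15) and all NAM-treated samples (3.20, 4.06, 3.64 and 3.62). The rescaled log2 changes were 0.34 and -0.44 (limma adjusted p = 0.195 and 0.127), and -0.10 in NAM-treated against lean (adjusted p = 0.758).

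Col3a1, the chain of collagen III, was the most abundant collagen measured. It stood at 31.7, 34.6, 32.5 and 38.5 TPM in the lean samples, 27.5, 41.4, 52.4 and 37.6 TPM in the obese and 31.0, 33.5, 34.7 and 30.9 TPM in the NAM-treated samples. Obese sample 1 was the lowest of all 12 and obese sample 3 the highest. The log2 changes as deposited were 0.17 in obese against lean and -0.25 in NAM-treated against obese (limma adjusted p = 0.445 and 0.226), and rescaled 0.42 and -0.56 (adjusted p = 0.179 and 0.113). Without obese sample 1, Col3a1 fell in NAM-treated against obese hearts in both scalings (-0.41 as deposited, adjusted p = 0.0294; -0.70 rescaled, adjusted p = 0.0488). It also rose in obese against lean rescaled (0.56, limma adjusted p = 0.0482). Rescaled, limma called no member in either comparison when obese sample 2, 3 or 4 was left out instead.

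The ratio of Col1a1 to Col3a1 also had close group means. Col1a1 per Col3a1 averaged 0.121 in the lean group, 0.120 in obese and 0.123 in NAM-treated hearts, and the mean log2 ratio differed by -0.02, 0.04 and 0.02 in the 3 comparisons (exact permutation p = 0.857, 0.714 and 0.8). Col1a1 and Col3a1 together made up 40.5% ± 2.84 of the measured collagen TPM in the lean group, 45.6% ± 2.53 in obese and 41.4% ± 2.02 in NAM-treated hearts (SD, n = 4 each). Col5a1 and Col5a2, whose collagen V sets fibril width, averaged 1.74, 1.53 and 1.60 TPM and 4.49, 4.72 and 4.57 TPM in the lean, obese and NAM-treated groups, with all groups overlapping as deposited.

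Collagen IV was also set against collagen III within each sample. Col4a1 per Col3a1 averaged 0.337 ± 0.0777 in the lean group, 0.193 ± 0.0789 in obese and 0.229 ± 0.0295 in NAM-treated hearts (SD, n = 4 each). The mean log2 ratio was -0.86 in obese against lean, with 1 obese sample inside the lean range (exact permutation p = 0.0857, 0.257 adjusted over the 15 ratio tests). In NAM-treated against lean it was -0.54 with no overlap (exact permutation p = 0.0286, the smallest possible, adjusted 0.143), and in NAM-treated against obese it was 0.32 (exact permutation p = 0.314). Leaving out 1 sample moved the first of these between -1.11 (without obese sample 1) and -0.70 (without obese sample 3). No ratio test passed 0.05 after adjustment. With 4 samples against 4 the smallest p allows a pass only when most of the 15 tests reach it, so the adjusted outcome says little about the ratios.

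Col3a1 was also set against Pdgfra, a receptor that marks fibroblasts. Pdgfra averaged 5.44, 6.87 and 6.61 TPM, and Col3a1 per Pdgfra 6.36 ± 0.552, 5.74 ± 0.947 and 4.95 ± 0.474 in the lean, obese and NAM-treated groups (SD, n = 4 each). The mean log2 ratio was lower by 0.36 in NAM-treated than lean hearts without overlap (exact permutation p = 0.0286, adjusted 0.143), and differed by -0.16 in obese against lean and -0.20 in NAM-treated against obese (exact permutation p = 0.286 and 0.2). The planned ratio of Col1a1 to Col1a2 and that of Col4a1 to Pecam1 were not computed, since Col1a2 and Pecam1 were not analysed here.

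**Figure D3:**
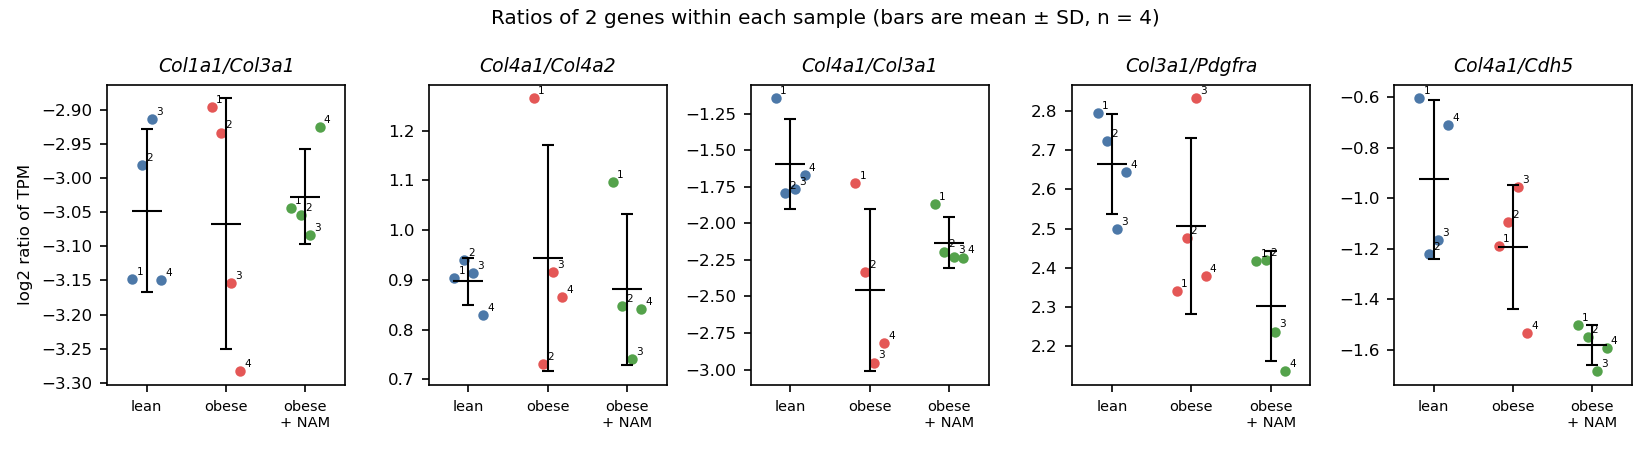
Log2 ratios of 2 genes within each sample (y axis), by group (x axis; points are the 4 samples, bars the mean ± SD). Col1a1/Col3a1 and Col4a1/Col4a2 overlap in all groups, while Col4a1/Col3a1, Col3a1/Pdgfra and Col4a1/Cdh5 are lower in all 4 NAM-treated samples than in any lean sample.

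Among the other interstitial genes, Sparc, a collagen-binding matricellular protein, was by far the most abundant member. It stood at 228, 245, 238 and 219 TPM in the lean samples, 213, 230.2, 219 and 222 TPM in the obese and 234, 214, 240.0 and 240.4 TPM in the NAM-treated samples, which overlapped. Sparc alone held 38.8%, 37.3% and 37.2% of the members' summed TPM on average. Its log2 change as deposited was -0.07 in obese against lean and 0.07 in NAM-treated against obese (limma adjusted p = 0.461 and 0.441). Rescaled, the obese samples lay at 253, 248, 249.8 and 253 TPM, above every lean (208, 238, 229 and 209.5) and NAM-treated sample (199.8, 215, 214 and 214). The rescaled log2 changes of 0.18 and -0.25 missed the threshold (adjusted p = 0.129 and 0.0700).

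Bgn, which encodes the small proteoglycan biglycan, was the member called higher in obese hearts. It stood at 22, 22.2, 24.8 and 28.2 TPM in the lean samples, 24.4, 34.8, 37.7 and 32.8 TPM in the obese and 35.1, 26.5, 36.6 and 29.1 TPM in the NAM-treated samples. As deposited, obese sample 1 and NAM-treated sample 2 lay within the lean range and the other samples of both groups above it. The log2 change in obese against lean was 0.39 ± 0.14 (SE) as deposited (limma adjusted p = 0.0714). It was 0.64 ± 0.12 rescaled (adjusted p = 0.0298), where the obese samples no longer overlapped the lean. The rescaled call was lost in 6 of 12 fits with 1 sample left out (adjusted p up to 0.0905, without lean sample 1). The change in NAM-treated against lean was 0.37 as deposited and 0.31 rescaled (adjusted p = 0.211 and 0.228), and in NAM-treated against obese -0.02 and -0.34 (adjusted p = 0.924 and 0.211).

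Postn, which encodes periostin, a matricellular protein of activated fibroblasts, was low and varied widely. It stood at 1.32, 0.844, 0.536 and 3.32 TPM in the lean samples, 2.12, 3.13, 5.24 and 4.31 TPM in the obese and 1.01, 3.25, 4.39 and 4.39 TPM in the NAM-treated samples. Lean sample 4 and NAM-treated sample 1 each lay among the values of the other groups. The log2 change in obese against lean was the largest of any member in size, 0.98 ± 0.39 (SE) as deposited and 1.16 ± 0.38 rescaled, and missed limma's threshold (adjusted p = 0.106 and 0.162). Without lean sample 4 it was 1.28 as deposited (limma adjusted p = 0.0409). It missed the threshold without lean sample 1 or without obese sample 1 (adjusted p = 0.184 and 0.0972). The NAM-treated against lean change was 0.78 as deposited and 0.73 rescaled (adjusted p = 0.340 and 0.373).

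Fn1, the cell-adhesive glycoprotein fibronectin, stood at 2.20, 1.83, 1.83 and 2.90 TPM in the lean samples, 1.88, 2.21, 2.89 and 1.91 TPM in the obese and 2.90, 2.12, 4.02 and 2.40 TPM in the NAM-treated samples. All 3 groups overlapped, and its log2 change as deposited was 0.02 in obese against lean and 0.25 in NAM-treated against obese (limma adjusted p = 0.953 and 0.271). Rescaled, it was 0.20 and 0.01 (adjusted p = 0.577 and 0.978). Col14a1, a collagen that sits on fibril surfaces, averaged 4.24 ± 0.513 TPM in the lean group, 6.10 ± 1.98 in the obese and 6.92 ± 1.27 in the NAM-treated (SD, n = 4 each). Every NAM-treated sample was above every lean sample, in both scalings, with a log2 change of 0.59 as deposited (adjusted p = 0.167). Without obese sample 1, limma called Col14a1 higher in obese and in NAM-treated than in lean hearts in both scalings. Obese sample 1 is in neither group of the comparison of NAM-treated with lean. As deposited, limma called no member in that comparison when any other sample was left out.

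No other tested member of that group was called. Col6a1 and Col6a2, chains of the beaded filaments of collagen VI, averaged 9.74, 10.8 and 9.81 TPM and 7.75, 7.66 and 7.28 TPM in the lean, obese and NAM-treated groups. Rescaled, Col6a1 had log2 changes of 0.36 in obese against lean and -0.40 in NAM-treated against obese (limma adjusted p = 0.182 and 0.155). Col8a1, a short-chain collagen of vessel walls, averaged 2.65, 3.37 and 2.80 TPM. Ogn, the small proteoglycan osteoglycin, averaged 36.6, 39.4 and 43.9 TPM, and Fmod, the related fibromodulin, 0.254 ± 0.0659, 0.599 ± 0.252 and 0.373 ± 0.202 TPM (SD, n = 4 each), under the filter.

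In the elastic fibre group no member was called. Eln, which encodes tropoelastin, stood at 1.47, 2.52, 2.04 and 3.79 TPM in the lean samples, 2.32, 2.80, 3.52 and 2.64 TPM in the obese and 1.93, 1.5, 2.30 and 1.33 TPM in the NAM-treated samples. Every NAM-treated sample was below every obese sample, in both scalings, and both groups overlapped the lean samples. The log2 change in NAM-treated against obese was -0.47 ± 0.19 (SE) as deposited and -0.70 ± 0.19 rescaled, and missed the threshold in limma (adjusted p = 0.0715 and 0.110). As deposited it passed without lean sample 1 or lean sample 4 (limma adjusted p = 0.0457 and 0.0374), and when only the 8 obese and NAM-treated samples were fitted (adjusted p = 0.0392). It missed the threshold without obese sample 1 (adjusted p = 0.0765). The direction of Eln is opposite to the median of all genes as deposited (0.25). As deposited, 0.333% of all genes tested and 1 tested member, Eln, had no overlap on the lower side, and 28% of all genes and 1 member, Lama2, on the higher side.

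Fbn1, the fibrillin of the microfibril scaffold, stood at 3.11, 2.57, 3.09 and 3.70 TPM in the lean samples, 2.81, 4.71, 4.40 and 3.03 TPM in the obese and 4.80, 3.5, 4.38 and 4.01 TPM in the NAM-treated samples. Obese samples 1 and 4 lay within the lean range, and the log2 change in obese against lean was 0.19 as deposited and 0.39 rescaled (limma adjusted p = 0.396 and 0.154). Against lean it was 0.33 as deposited and 0.27 rescaled in NAM-treated hearts (adjusted p = 0.273 and 0.310). Ltbp4, which holds latent TGF-beta on microfibrils and takes part in elastic fibre assembly, averaged 6.41 ± 0.706 TPM in the lean group, 4.77 ± 0.720 in the obese and 4.53 ± 0.728 in the NAM-treated (SD, n = 4 each). All lean samples were above all others as deposited, and the log2 changes of -0.36 in obese against lean and -0.43 in NAM-treated against lean missed limma's threshold (adjusted p = 0.0597 and 0.110; rescaled 0.627 and 0.0740). Fbln1 and Fbln5, fibulins that bind elastin and microfibrils, averaged 6.51, 6.87 and 6.15 TPM and 7.49, 7.65 and 7.42 TPM in the lean, obese and NAM-treated groups. Emilin1, a glycoprotein of the elastin surface, averaged 0.829, 1.06 and 0.672 TPM and did not pass the filter.

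Of the remodelling genes, Timp3 was called, in NAM-treated against obese hearts. TIMP3 is the metalloproteinase inhibitor that binds to the matrix. It stood at 25.9, 20.2, 19.4 and 24.8 TPM in the lean samples, 17.9, 21.4, 18.8 and 25.2 TPM in the obese and 31.2, 24.1, 29.1 and 29.2 TPM in the NAM-treated samples, and obese sample 4 overlapped the NAM-treated group. Timp3 rose by 0.44 ± 0.13 (SE) on the log2 scale as deposited (limma adjusted p = 0.0240), a call lost in 5 of 12 fits with 1 sample left out (adjusted p up to 0.0701, without NAM-treated sample 1). Rescaled, the change was 0.12 (adjusted p = 0.614). NAM-treated against lean gave 0.32 as deposited and 0.26 rescaled (adjusted p = 0.227 and 0.240), and 0.43 without the mitochondrially encoded genes, past the threshold (adjusted p = 0.0369).

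Lox, which encodes the lysyl oxidase that cross-links collagen and elastin, stood at 1.99, 1.62, 1.49 and 1.97 TPM in the lean samples, 1.35, 2.46, 3.0 and 2.80 TPM in the obese and 2.35, 1.51, 2.22 and 2.0 TPM in the NAM-treated samples. Obese sample 1 was the lowest of the 12 and the other obese samples the highest. The log2 change in obese against lean was 0.28 as deposited and 0.45 rescaled (limma adjusted p = 0.249 and 0.154). Without obese sample 1 it was 0.44 and 0.61, past the threshold in both scalings (adjusted p = 0.0430 and 0.0243). Rescaled, limma called no member in obese against lean when obese sample 2, 3 or 4 was left out instead. The related oxidases Loxl1 and Loxl2 averaged 0.862, 1.29 and 0.945 TPM and 1.95, 2.17 and 1.47 TPM in the lean, obese and NAM-treated groups.

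Mmp2, a gelatinase, stood at 15.5, 14.5, 18.1 and 19.5 TPM in the lean samples, 12.9, 18.4, 22.8 and 17.6 TPM in the obese and 16.3, 17.0, 17.4 and 16.3 TPM in the NAM-treated samples. As deposited the obese samples spanned both other groups. The log2 change was 0.06 in obese against lean and -0.06 in NAM-treated against obese (limma adjusted p = 0.786 and 0.759). Rescaled, it was 0.31 (95% interval 0.0009 to 0.61) and -0.37 (95% interval -0.68 to -0.06), and missed limma's threshold (adjusted p = 0.298 and 0.228). Mmp14, the membrane-bound activator of MMP2, averaged 1.66 ± 0.425 TPM in the lean group, 2.37 ± 0.285 in the obese and 2.60 ± 0.429 in the NAM-treated (SD, n = 4 each). Its log2 change in obese against lean was 0.35 as deposited and 0.53 rescaled (adjusted p = 0.0849 and 0.0623). Timp1, an inducible inhibitor, stood at 9.33, 4.28, 5.03 and 8.55 TPM in the lean samples, 3.78, 6.40, 8.66 and 8.96 TPM in the obese and 6.87, 4.09, 5.72 and 7.06 TPM in the NAM-treated samples. Each group held samples from low to high. The 95% interval of its log2 change in obese against lean ran from -0.57 to 0.63 as deposited and from -0.31 to 0.82 rescaled. Timp2, an inhibitor that also takes part in MMP2 activation, averaged 26.5, 26.6 and 27.7 TPM.

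Across the members, the groups parted without overlap in few cases, and the side differed between the scalings. In obese against lean as deposited 3 tested members were apart on the lower side (Col4a1, Col4a2 and Ltbp4), beside 23.2% of all genes tested, and none on the higher side, beside 0.627%. Rescaled, 6 were apart on the higher side (Col1a1, Sparc, Bgn, Lamc1, Fbln5 and Mmp14), beside 4.26% of all genes, and none on the lower side, beside 5.31%. In NAM-treated against obese rescaled, 4 were apart on the lower side (Col1a1, Sparc, Eln and Fbln5), beside 4.3% of all genes, and none on the higher side, beside 4.87%. As deposited, NAM-treated against lean had 3 higher (Col14a1, Lama2 and Lamb1) and 3 lower (Col4a1, Col4a2 and Ltbp4), beside 6.94% and 3.81% of all genes. Rescaled, 4 were higher in that comparison (Col14a1, Lama2, Mmp14 and Timp3) and the same 3 lower, beside 5.84% and 6.35%.

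**Figure D4:**
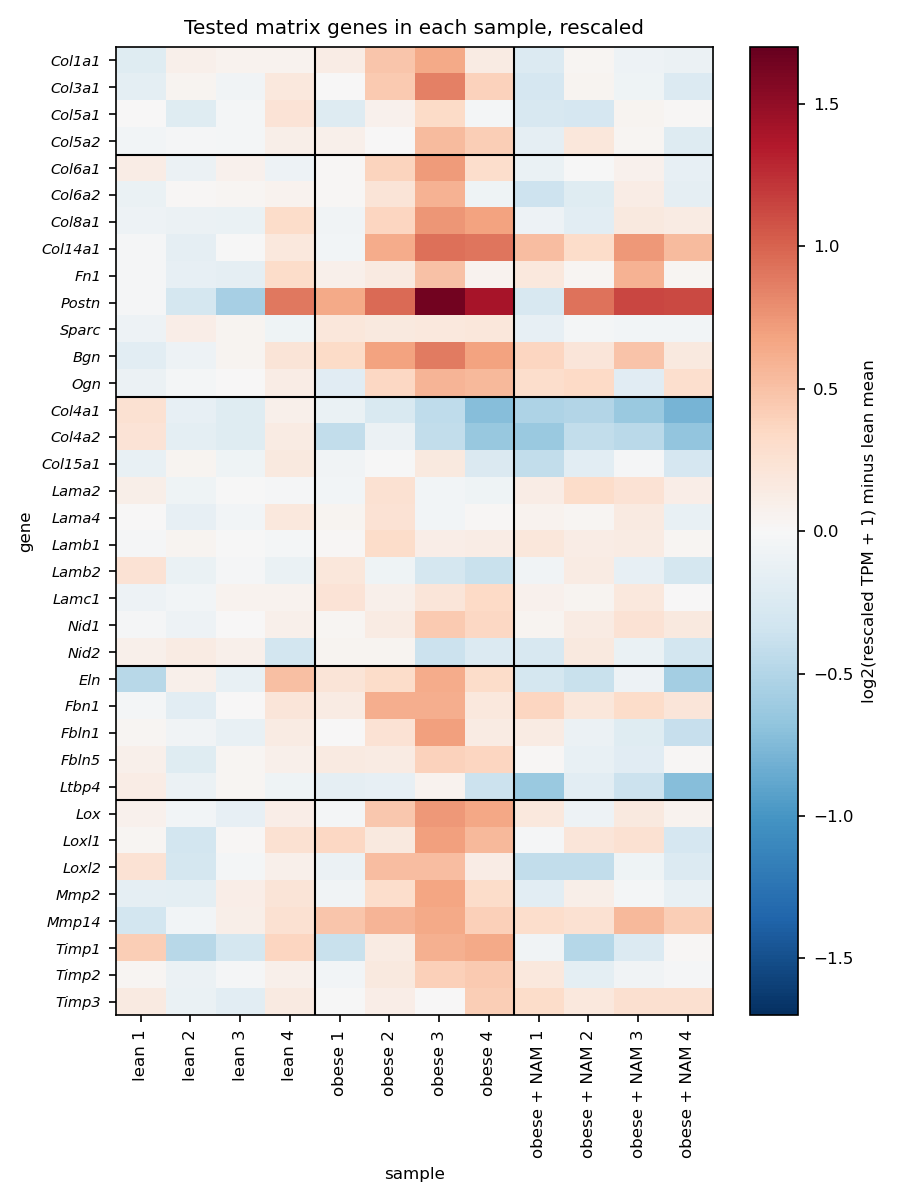
Rescaled level of each tested member (rows, by group) in each of the 12 samples (columns). Colours give the difference of log2(rescaled TPM + 1) from the gene's mean over the lean samples (colour scale in log2 units). Obese sample 1 is the lowest of the obese samples in 20 of the 36 rows and obese sample 3 the highest in 23.

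The obese group was the most variable for these genes. Rescaled, 25 of the 36 tested members had their largest SD of log2(TPM + 1) in the obese group, 6 in the lean and 5 in the NAM-treated group, where over all genes tested the shares were 41.0%, 32.4% and 26.6%. The median SD of the members was 0.23 in obese, 0.14 in lean and 0.15 in NAM-treated samples, and that of all genes 0.17, 0.16 and 0.15. As deposited, obese sample 1 was the lowest of the 4 obese samples for 25 of 36 members, as it was for 35.8% of all genes tested. It also had the lowest sum of the 11 fibroblast markers in its group (550.2 TPM, the other obese samples 704, 851.6 and 952) and of the 8 macrophage markers (20.1 TPM, the others 42.6, 64.2 and 78.8). The fibroblast sums were 634 to 675 TPM in lean and 546 to 692 TPM in NAM-treated samples, and the macrophage sums 31.9 to 49.4 and 35.6 to 45.8 TPM. Cd68, a macrophage marker, averaged 2.31, 2.40 and 2.22 TPM. Rescaled, all 8 macrophage markers had a log2 change above 0 in obese against lean (median 0.34) and below 0 in NAM-treated against obese (median -0.22). In each, 1 had an unadjusted p under 0.05 on that side (8.14% and 8.42% of all genes) and none was called (1.34% and 0.713%). As deposited, 6 of the 8 were above 0 in the first and 4 below 0 in the second. Rescaled, the fibroblast sums were 614 to 648 in lean, 654 to 1088 in obese and 549 to 611 in NAM-treated samples, so that each obese sample was above all others. Of 10 tested fibroblast markers, limma called 1 higher in obese against lean as deposited (0.352% of all genes) and none rescaled (1.34%). In NAM-treated against obese it called 1 lower as deposited (0.466%) and 2 lower rescaled (0.513%). Their as-deposited medians were 0.25 (9 of 10 above 0) and -0.09 (9 of 10 below 0). All 10 had a rescaled log2 change above 0 in obese against lean (median 0.49, 9 at an unadjusted p under 0.05, beside 8.14% of all genes) and below 0 in NAM-treated against obese (median -0.39, 7 at that level, beside 8.42%). A separate list of activated fibroblast markers had 4 tested genes. Rescaled, all 4 were above 0 in obese against lean (median 0.12), with none at that level. As deposited, 3 of the 4 were below 0 in obese against lean (median -0.08). In NAM-treated against obese rescaled, 3 of the 4 were below 0 (median -0.31, 1 at that level, beside 8.42% of all genes). Of the 10 cardiomyocyte markers, limma called 9 lower (16.5% of all genes) and 1 higher (0.352%) in obese against lean as deposited. Rescaled, it called 3 lower (0.751% of all genes) and 1 higher (0.589%). In NAM-treated against obese it called 9 of the 10 higher as deposited (28.8% of all genes) and 1 rescaled (0.2%). None was called lower there (0.466% of all genes as deposited, 0.513% rescaled). The 5 measured erythroid genes summed to 724 to 1596 TPM in lean, 1662 to 4020 in obese and 487 to 2302 in NAM-treated samples. The part of these markers in the members' levels was not tested. Without obese sample 1, limma called 6 members in obese against lean as deposited (Col14a1, Bgn and Lox higher, beside 0.675% of all genes in that fit, and Col4a1, Col4a2 and Lamb2 lower, beside 11.4%). Rescaled it called 4 (Col3a1, Col14a1, Bgn and Lox, all higher), beside 1.13% of all genes higher and 0.988% lower. In NAM-treated against obese it called 3 as deposited (Col3a1 lower, beside 0.504% of all genes, and Lama2 and Lamb2 higher, beside 20.1%) and 1 rescaled (Col3a1 lower, beside 0.304%, with 0.076% higher). In NAM-treated against lean it called Col14a1 higher in both scalings, beside 0.665% and 0.836% of all genes, and Col4a1 lower rescaled, beside 1.9% (0.874% as deposited).

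Genes that fold and process collagen were read beside the shares of all genes tested. Of 14 tested biosynthesis genes, limma called 1 lower in obese against lean as deposited, beside 16.5% of all genes. This was P4hb, the beta subunit of prolyl hydroxylase (-0.42, limma adjusted p = 0.00402). In NAM-treated against obese limma called 2 higher, beside 28.8% of all genes. These were P4hb (0.24, adjusted p = 0.0271) and Sec31a, a coat protein of secretory vesicles (0.46, adjusted p = 0.0100). Of 18 tested TGF-beta pathway genes limma called none in obese against lean, beside 16.5% of all genes called lower as deposited. None had an unadjusted p under 0.05 as deposited (32.5% of all genes lower, 1.32% higher). After rescaling 1 did, on the higher side (8.14% of all genes). Tgfbr3, a co-receptor of TGF-beta, was the 1 called higher in NAM-treated against obese (0.61, limma adjusted p = 0.00495), beside 28.8% of all genes. Tgfb1, the main ligand, averaged 3.29, 2.27 and 3.01 TPM.

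Of 12 tested matrix receptors, 1 was called lower in obese against lean as deposited, beside 16.5% of all genes. This was Itga7, the laminin-binding integrin alpha chain of muscle (-0.44, limma adjusted p = 0.0280). In NAM-treated against obese 5 of the 12 were higher, beside 28.8% of all genes, Itga7 (0.56, adjusted p = 0.00773) and Dag1, the laminin-binding dystroglycan (0.49, adjusted p = 0.00834), having the smallest p. Of 12 other tested proteases and inhibitors, limma called 2 lower in obese against lean, beside 16.5% of all genes. They were Adamts9 (-0.50, limma adjusted p = 0.0324) and Mmp15 (-0.51, adjusted p = 0.0493). Adam10, a membrane sheddase, was the 1 called higher in NAM-treated against obese (0.39, limma adjusted p = 0.0196), beside 28.8% of all genes. These directions are those of most genes in the same comparisons as deposited. Rescaled, limma called none of the genes of these 4 lists in any of the 3 comparisons, with 7 higher and 2 lower at an unadjusted p under 0.05 in obese against lean (8.14% and 8.54% of all genes), and 2 higher and 6 lower in NAM-treated against obese (7.27% and 8.42%). None was called in NAM-treated against lean in either scaling, with 6 higher and 2 lower at an unadjusted p under 0.05 as deposited (10.6% and 6.39% of all genes) and 5 and 3 rescaled (7.42% and 9.41%).

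Promoters of the called genes were read from RefSeq's GRCr8 table, which matched 24 of the 39 measured members. Bgn was called but is not among the 24, so its promoter was not read. Lama2 and Timp3 are shown as 2 of the 3 genes called in NAM-treated against obese hearts. The window of the other, Lamb1, holds 2 GGGCGG and no CCAAT and is not printed. The sequences of Lama2 and Timp3 are the 250 bases before the annotated start, written along the gene's strand (Lama2 at chr1:19491896-19492145, plus strand; Timp3 at chr7:19459559-19459808, minus strand). Capitals mark CCAAT, which NF-Y-type factors bind, and GGGCGG, on either strand.
Lama2: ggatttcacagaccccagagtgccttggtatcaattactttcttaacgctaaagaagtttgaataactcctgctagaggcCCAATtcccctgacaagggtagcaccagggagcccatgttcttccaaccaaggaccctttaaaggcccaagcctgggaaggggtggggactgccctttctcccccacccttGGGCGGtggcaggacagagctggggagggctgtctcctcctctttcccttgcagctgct
Timp3: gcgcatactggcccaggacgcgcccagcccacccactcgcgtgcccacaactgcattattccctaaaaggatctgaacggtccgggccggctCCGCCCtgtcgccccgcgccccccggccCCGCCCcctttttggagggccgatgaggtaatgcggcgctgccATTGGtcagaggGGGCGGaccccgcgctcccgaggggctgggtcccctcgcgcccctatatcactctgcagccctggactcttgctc
The Lama2 window holds 1 CCAAT and 1 GGGCGG, and the Timp3 window 1 CCAAT and 3 GGGCGG, with neither TATAAA nor CAGACA in them. Windows of the same 250 bases hold 1 CCAAT and 1 GGGCGG for Col4a1, and 1 CCAAT and 2 GGGCGG for Col4a2, again with neither of the other motifs. Over 33469 rat promoters, 30.5% of windows of this length hold GGGCGG, 34.0% CCAAT, 12.9% TATAAA and 17.2% CAGACA, a letter run that SMAD proteins bind, counted on both strands. Among the 24 members matched, 15, 7, 3 and 6 hold them. A match is a stretch of letters and not a tested site.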

How the data were processed

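RNA was extracted with TRIzol and RNeasy kits and made into directional libraries with a NEBNext Ultra II kit, per the labels' protocols. The deposited table holds TPM per gene, computed by the authors; the submitters' processing notes name the Rnor_6.0 assembly and limma, without a version, and a read aligner was not given in the sources used here, nor a quantifier. In the NAM-treated columns, which are otherwise TPM like the rest, the deposited values of 498 genes are a text mark of a failed lookup; these genes, none of them a member, were left out, which leaves 17104. Depth is unknown, so no counting interval is given.

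Groups came from the labels. The 10526 genes that reached 1 TPM in 4 or more of the 12 samples were fitted as log2(TPM + 1) with limma 3.58.1 in R 4.3.3 (3 group means, residual degrees of freedom 9, then eBayes with its trend and robust options and statmod 1.5.0), 2-sided, Benjamini-Hochberg adjusted within each comparison. A fold change on this scale understates that of low genes. Rescaling was by median of ratios: a sample's factor is its median ratio, over kept genes, to their geometric means (factors 0.841 to 1.17). Log2 ratios of 2 genes were compared by exact 2-sided permutation of 4 against 4 samples. The script for all genes was tested on simulated data. Sequences and the 39 of 39 matched symbols come from RefSeq's GRCr8 tables, used for names and promoters only; no coordinate was carried to Rnor_6.0. Motifs were searched with Python 3.11.15.

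Members, lists and tests were chosen with earlier results of these data known. Values in every sample are given for the 12 measured members that the naming rule lists and for each member past the threshold; up to 2 genes per pathway list and comparison are named by smallest p, and Tgfb1 and Cdh5 were added after their values were seen. Samples with the same number in different groups did not deviate together (correlations -0.05 to 0.07 over 12 pairs, none over 0.1), and the main fits did not pair them. Such correlations cannot exclude that samples were paired. Alternatives were pseudocounts of 0.1 and 5, other filters, scalings and fits, a replicate block, and each sample left out.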

Additional observations from a re-analysis of the deposited data

Results flagged for a closer look

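In groups of 4, 1 sample stood far from the other 3 (a gap of over 0.829 of the group's range) in 8 of 132 groups of values examined, where chance gives about 1 in 20. Lean sample 1 had 3.58 TPM of Col1a1, below the next at 4.32 TPM, and NAM-treated sample 1 had 3.75 TPM, below the next at 4.03 TPM. Lean sample 4 had 3.46 TPM of Col8a1, above the next at 2.49 TPM, and 0.563 TPM of Nid2, below the next at 1.08 TPM. Obese sample 2 stood apart for 3 genes: it had 0.221 TPM of Fmod, below the next at 0.709 TPM, 12.8 TPM of Lama2, above the next at 9.67 TPM, and 9.70 TPM of Lama4, above the next at 7.70 TPM. The log2 ratio of Col4a1 to Col3a1 was -1.87 in NAM-treated sample 1 and -2.19 in the next.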

How the results depend on the processing

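As deposited, limma called 1770 genes in obese against lean, 3077 in NAM-treated against obese and 193 in NAM-treated against lean, with 2, 3 and 0 members; median-of-ratios rescaling gave 141, 75 and 248 genes with 1, 0 and 1 members. Recomputing TPM without mitochondrially encoded genes gave 83, 323 and 741 genes with 1, 0 and 3 members, and quantile normalization 126 and 66 genes with 1 and 0 members in the first 2. The log2 change of Lamb1 turned to -0.0202 in NAM-treated against obese under rescaling and to -0.00102 under quantile normalization. Without a filter 124 genes were called as deposited in NAM-treated against lean. Keeping only genes that averaged 5 TPM or more gave 4 members in obese against lean (Bgn higher; Col4a1, Lamb2 and Ltbp4 lower; Col4a2 not tested). Rescaled, no filter gave 72, 27 and 145 genes, with 0 members in obese against lean and 0 in NAM-treated against lean, and the 5 TPM filter gave 117 genes and 1 member (Sparc, lower) in NAM-treated against obese. Rescaled, eBayes without trend and robust gave 85 and 16 genes in the first 2 comparisons and 0 members in NAM-treated against lean. Rescaled fits of only the 8 samples compared gave 43 and 19 genes in the first 2, 0 members in obese against lean and 2 in NAM-treated against lean (Col14a1 and Col4a1). With the replicate number as a block, the rescaled NAM-treated against obese comparison called 29 genes; the block called 3, 3 and 0 members as deposited (Lamb2 joined in the first 2 and Lamb1 left the second) and 1, 0 and 1 rescaled.

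Leaving out 1 sample gave 1000 to 1956, 1848 to 3625 and 70 to 189 genes as deposited, with 2 to 6, 1 to 4 and 0 to 1 members, and 41 to 223, 10 to 162 and 105 to 288 genes rescaled, with 0 to 4, 0 to 1 and 0 to 2 members. The higher ends for members in obese against lean were without obese sample 1. In single such fits limma also called Lama4 and Lamc1 (NAM-treated against obese, as deposited), and rescaled Mmp14 (obese against lean), Col4a2 and Ltbp4 (NAM-treated against lean). The cause of these moves was not tested. Pseudocounts of 0.1 and 5 called the same members as the pseudocount of 1 in all 6 combinations of comparison and scaling. Log2 changes of the 16 named members, 48 values, changed sign in 9 under rescaling, 10 under quantile normalization and 12 without mitochondrially encoded genes; of these Lamb1 was the only called value. Differences in log2 ratios of Col4a1 to Col3a1 and to Cdh5, and of Col3a1 to Pdgfra, had 1 direction per comparison whichever sample was left out.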
